A study of Mus musculus with 3 samples.

Results

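The high-fat diet array with anti-VLA-4 antibody was set against the standard diet array, 2 of the 3 arrays of a series on mouse hepatocytes. The pair was taken by the arrays' titles. Each array was a 1-colour Agilent expression array, and each group had 1 array, so no difference here has a replicate check and none carries a p-value. All groups were male C57BL/6 mice, 22 weeks old at isolation, kept on their diet for 16 weeks from the age of 6 weeks. The high-fat diet mice were injected into the peritoneum 2 times a week for the last 6 weeks, after 10 weeks of diet, either with an antibody that blocks VLA-4 or with control IgG. The labels list no injection for the standard diet mice. Hepatocytes were freed with collagenase from fasted mice, and the labels do not give the number of mice behind an array. The standard diet and IgG arrays lay on the same slide and the anti-VLA-4 array on another, so diet, injection, antibody and slide differ together in this pair and cannot be told apart.

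VLA-4 is the integrin made of the chains Itga4 and Itgb1. Leukocytes carry it and use it to bind Vcam1 on endothelium and fibronectin in matrix, and antibodies against Itga4 block their entry into inflamed tissue. A high-fat diet loads hepatocytes with triglyceride and brings low-grade inflammation to the liver, with changes in lipid, hormone and acute phase genes. The comparison asks which differences between the diets were present in hepatocytes of mice that had received the blocking antibody.

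A level below is a probe's signal divided by the 75th percentile of the array's non-control spots, and a difference is the log2 of the anti-VLA-4 level over the standard diet level. Levels were compared within a probe and not between genes, except that the summed levels of marker lists add probes of different genes. Bright and dim below refer to a probe's signal and not to an amount of RNA. The 75th percentile was 574 for standard diet, 500.3 for IgG and 514 for anti-VLA-4, and in the same order 57.3%, 66.5% and 62.4% of spots were well above background. The scanner's own error was 0.20 on the log2 scale at the median gene, which covers the reading of the spot and not the spread between mice. All 23 hepatocyte identity genes were well above background on every array, and their differences ran from -0.67 to 0.62. The share of genes at least 2-fold higher hardly moved with the purine content of the probe in this pair, from 6.17% at up to 40% purines to 5.74% above 60%. The IgG array over the same standard diet array went from 5.86% to 18.3% over the same bins. The part of purine content in the gaps between the IgG and anti-VLA-4 levels below was not tested.

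Of 17527 genes well above background on both arrays, 1023 (5.84%) were at least 2-fold higher with high-fat diet and anti-VLA-4 and 379 (2.16%) at least 2-fold lower. The other 16125 genes lay within 2-fold, and the median of all genes was -0.04, with 8136 of 17527 above 0. The calls were 73.0% higher ones in this scaling. Quantile scaling gave 872 higher and 541 lower, 61.7% higher, and normexp background correction gave 3975 higher and 423 lower, 90.4% higher. For the IgG array over the standard diet array, 1431 genes (8.40% of 17042) lay at least 2-fold above and 357 (2.09%) at least 2-fold below. Both comparisons share the standard diet array, so their values stand side by side below and likeness between them is not counted as a repeat.

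**Figure D1:**
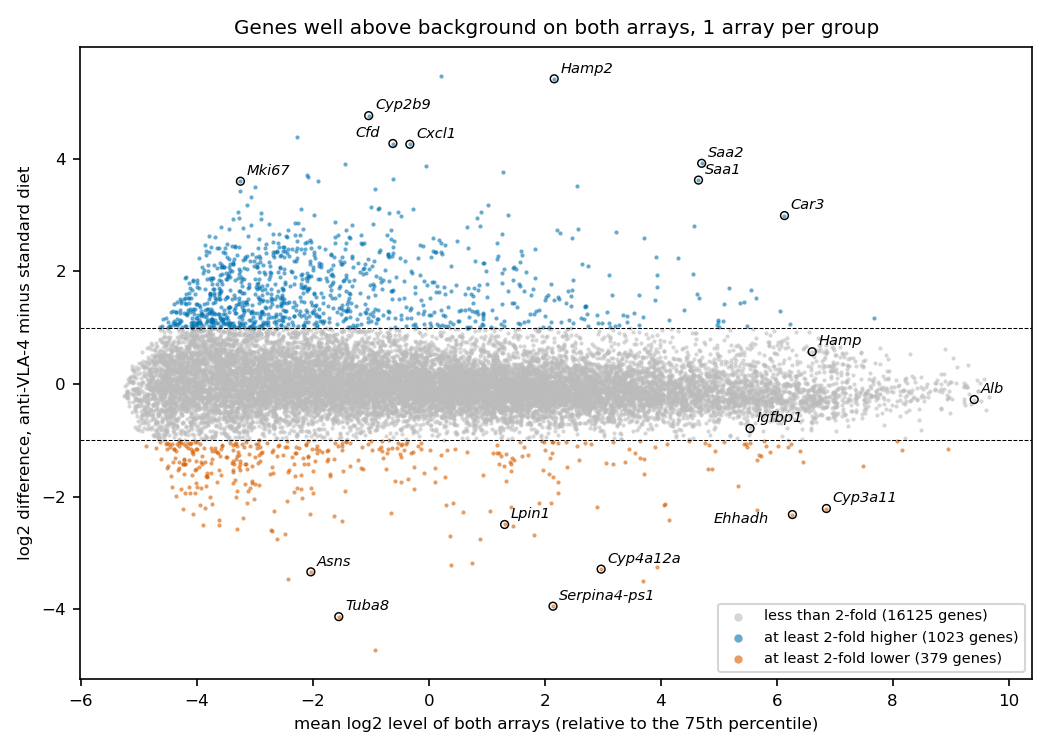
The x axis is the mean log2 level of both arrays and the y axis the log2 difference, anti-VLA-4 minus standard diet, with 1 point for each of the 17527 genes. Dashed lines mark 2-fold; the 1023 higher genes are blue, the 379 lower genes orange and the 16125 others grey, and the higher calls lie mostly at low mean levels while Saa1, Saa2 and Car3 are bright genes that lie high.

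Hamp2, a close copy of the hepcidin gene Hamp whose peptide limits iron export, had the largest fold among the named genes well above background on both arrays. It measured 0.685 with standard diet, 9.05 with IgG and 29.3 with anti-VLA-4, 42.8-fold higher with anti-VLA-4 than with standard diet. Hamp itself measured 80.2 with standard diet, 107 with IgG and 119 with anti-VLA-4, 1.49-fold higher. Hamp2 was thus far outside the scanner's error and Hamp within 2-fold, and the genes have separate probes. Their coding bases are shown because they bear on whether the probes can tell the copies apart. The capitals mark the 11 of 53 bases that differ, with the mm9 positions chr7:31727496-31727548 for Hamp and chr7:31707527-31707579 for Hamp2, both on the minus strand; the probes are 79.2% identical here.
Hamp probe: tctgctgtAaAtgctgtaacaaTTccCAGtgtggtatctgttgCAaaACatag
Hamp2 probe: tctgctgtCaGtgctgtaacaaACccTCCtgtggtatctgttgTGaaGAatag
How far each probe also binds the other copy's RNA was not tested. The promoters of both genes, taken from RefSeq on GRCm38.p6, are shown because the copies differ so much in their difference between diets. The aligned windows of 120 bases, which begin 123 bases before the start in Hamp and 120 before it in Hamp2, are 90.8% identical, with the 11 differing bases in capitals, at chr7:30944033-30944152 for Hamp and chr7:30924182-30924301 for Hamp2 on the minus strand.
Hamp promoter: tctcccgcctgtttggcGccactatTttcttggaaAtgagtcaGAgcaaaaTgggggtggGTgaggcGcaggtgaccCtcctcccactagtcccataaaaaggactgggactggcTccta
Hamp2 promoter: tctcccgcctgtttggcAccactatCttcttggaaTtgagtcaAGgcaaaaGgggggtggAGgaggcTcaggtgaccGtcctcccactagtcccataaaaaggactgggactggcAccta

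The 15 highest named genes included acute phase proteins, a chemokine, a Cyp2b enzyme and a lipid droplet protein. Cyp2b9, a female-biased cytochrome P450, measured 0.0935 with standard diet, 1.33 with IgG and 2.54 with anti-VLA-4, 27.2-fold higher. Cfd, the adipsin of the alternative complement pathway, measured 0.148 with standard diet, 3.47 with IgG and 2.86 with anti-VLA-4, 19.3-fold higher. Cxcl1, a chemokine that draws neutrophils, measured 0.182 with standard diet, 0.644 with IgG and 3.48 with anti-VLA-4, 19.1-fold higher. The IgG level of Cfd was above the anti-VLA-4 level, while Hamp2, Cyp2b9 and Cxcl1 were highest with anti-VLA-4. Saa2, a serum amyloid A of the acute phase, measured 6.71 with standard diet, 142 with IgG and 101.5 with anti-VLA-4, 15.1-fold higher. Its close copy Saa1 measured 7.17 with standard diet, 139 with IgG and 88.1 with anti-VLA-4, 12.3-fold higher, and signal may be shared between copies this alike. Cidea, a lipid droplet protein that fuses droplets, measured 0.0951 with standard diet, 4.01 with IgG and 1.42 with anti-VLA-4, 14.9-fold higher. These last genes were lower with anti-VLA-4 than with IgG and far above standard diet on both arrays. The Cfd and Saa2 probes hold 63.3% and 66.7% purines, and the Saa1 and Cidea probes 50% and 51.7%. The iron-binding acute phase protein Lcn2 measured 0.661 with standard diet, 9.97 with IgG and 8.95 with anti-VLA-4, 13.5-fold higher. Slc22a7, an organic anion transporter of hepatocytes, measured 1.74 with standard diet, 17.7 with IgG and 19.8 with anti-VLA-4, 11.4-fold higher. Mki67, a marker of cycling cells, measured 0.0302 with standard diet, 0.302 with IgG and 0.366 with anti-VLA-4, 12.1-fold higher. Its standard diet level lay near 0.0257, the lowest level called above background on that array. Normexp background correction took its difference from 3.60 to 2.01 on the log2 scale. The others in this group were Ly6c1 (14.6-fold), Grin3b (12.9-fold), Serpina3g (12.4-fold), Clec7a (12.2-fold) and the neutrophil alarmin chain S100a8 (11.4-fold).

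Among the 15 lowest were male-biased enzymes, a glucocorticoid-induced factor and the asparagine synthetase gene. Tuba8, an alpha tubulin, measured 1.43 with standard diet, 0.398 with IgG and 0.0814 with anti-VLA-4, 17.5-fold lower with anti-VLA-4 than with standard diet. Serpina4-ps1, a pseudogene of the serpin cluster, measured 17.3 with standard diet, 1.23 with IgG and 1.12 with anti-VLA-4, 15.4-fold lower. Eif4ebp3, a repressor of translation initiation, measured 43.5 with standard diet, 5.33 with IgG and 3.85 with anti-VLA-4, 11.3-fold lower. Both high-fat diet arrays were below standard diet for each of these. Cyp4a12a, a male-biased omega-hydroxylase, measured 24.5 with standard diet, 2.30 with IgG and 2.51 with anti-VLA-4, 9.77-fold lower. Its near-identical copy Cyp4a12b was 9.48-fold lower, and their probes may read the same RNA. Zbtb16, a zinc finger factor that glucocorticoid induces, measured 5.04 with standard diet, 0.441 with IgG and 0.556 with anti-VLA-4, 9.05-fold lower. Lpin1, a phosphatidate phosphatase and coactivator of fatty acid oxidation, measured 5.88 with standard diet, 0.693 with IgG and 1.04 with anti-VLA-4, 5.64-fold lower. The last 4 were at least as low with IgG. Smad9 (11.05-fold), Asns (10.1-fold), Agap2 (6.73-fold), Cib3 (6.46-fold), Cyp3a41b (6.39-fold), Lad1 (6.32-fold), Cgref1 (5.73-fold) and Scgb2b2 (5.66-fold) completed the group. With normexp background correction Smad9 (-0.90 on the log2 scale), Lad1 (-0.33) and Agap2 (-0.17) were within 2-fold, and Tuba8 (-1.55) and Asns (-1.14) were closer to it. Scgb2b2 was not well above background on the IgG array, and normexp background correction turned its difference to 0.50 on the other side of 0.

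**Figure D2:**
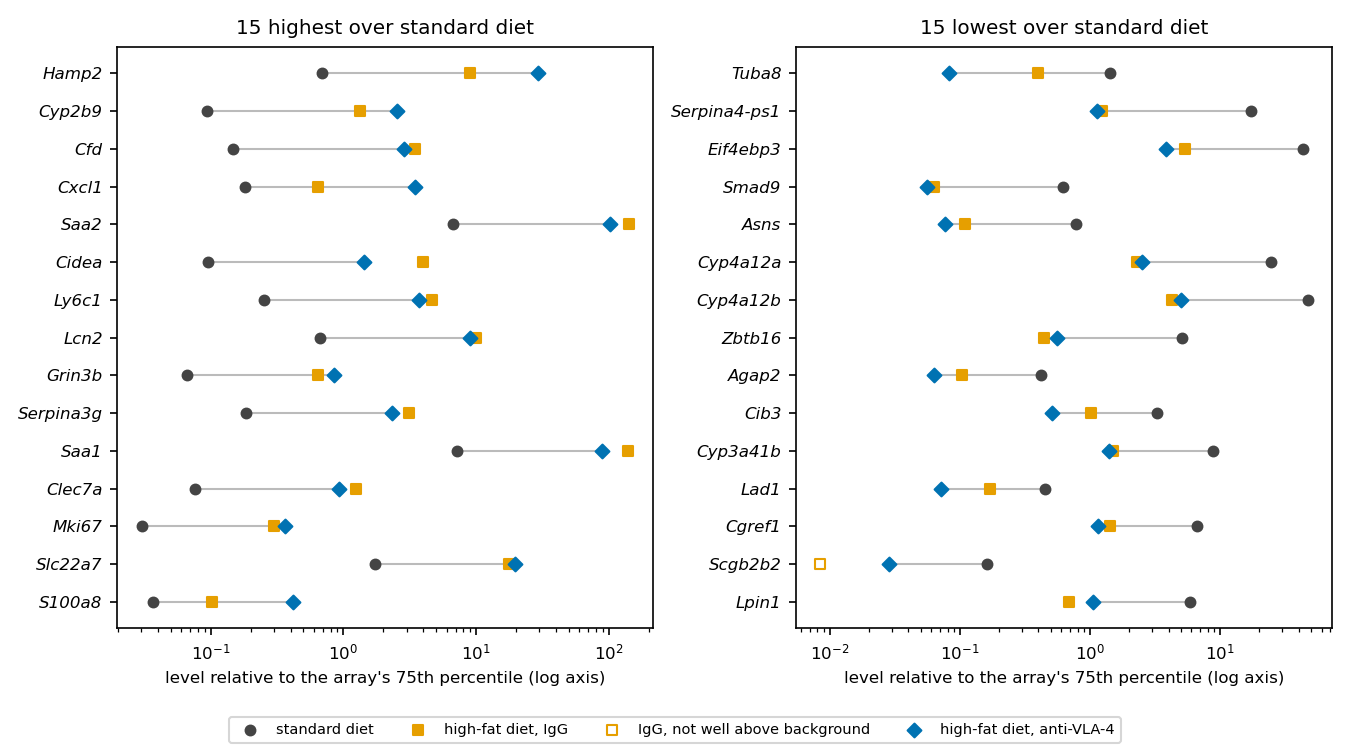
Each gene's level on the 3 arrays is plotted on a log axis, in multiples of the array's 75th percentile, for the 15 highest (left) and 15 lowest (right) named genes; circles are standard diet, squares IgG (open where not well above background) and diamonds anti-VLA-4. Every square and diamond on the left shows a higher level than its circle and every one on the right a lower level, with Cxcl1 and S100a8 furthest from IgG among the highest and Tuba8 among the lowest.

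The gene lists that follow are read against 5.84% higher and 2.16% lower over all genes. Lipid droplet genes were lower more often than higher. Of 17 compared, 1 passed 2-fold upward and 3 downward, with a median of -0.24; the IgG array had 3 and 2 with a median of -0.06. Cidea was the higher one. Its relative Cidec, a droplet-fusing protein that fasting and PPAR activity induce, measured 15.9 with standard diet, 6.52 with IgG and 3.49 with anti-VLA-4, 4.56-fold lower. Pnpla2, the first lipase of triglyceride breakdown, measured 16.8 with standard diet, 7.57 with IgG and 6.46 with anti-VLA-4, 2.61-fold lower. Plin5, which ties droplets to mitochondria, measured 80.2 with standard diet, 46.5 with IgG and 31.6 with anti-VLA-4, 2.53-fold lower. All 3 stood lowest with anti-VLA-4. Plin2, the main droplet coat protein, was 1.55-fold lower.

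Among 17 genes of fatty acid uptake and binding, 5 passed 2-fold upward and 1 downward, and the median was -0.04, 0.09 with quantile scaling. Cd36, a fatty acid translocase, measured 2.28 with standard diet, 5.90 with IgG and 5.40 with anti-VLA-4, 2.36-fold higher. Fabp4, the fatty acid binding protein of adipocytes and macrophages, measured 0.224 with standard diet, 2.71 with IgG and 0.975 with anti-VLA-4, 4.36-fold higher. The hepatocyte's own Fabp1 measured 529.7 with standard diet, 521 with IgG and 391 with anti-VLA-4 and was within 2-fold. Acsl4, an acyl-CoA ligase for arachidonate, was 2.01-fold lower.

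Genes of fatty acid and triglyceride synthesis split, with 3 of 25 at least 2-fold higher and 3 lower (median -0.25; IgG 3 and 5, median -0.32). Thrsp, a cofactor of lipogenesis, measured 1.80 with standard diet, 9.19 with IgG and 12.01 with anti-VLA-4, 6.65-fold higher. Srebf1, the insulin-driven master factor of lipogenesis, measured 0.273 with standard diet, 0.904 with IgG and 1.03 with anti-VLA-4, 3.78-fold higher. Fasn, the fatty acid synthase, measured 0.378 with standard diet, 0.259 with IgG and 0.318 with anti-VLA-4 and did not follow them past 2-fold. Acacb, the mitochondrial acetyl-CoA carboxylase, measured 6.67 with standard diet, 2.04 with IgG and 2.32 with anti-VLA-4, 2.87-fold lower. The male-biased elongase Elovl3 was 3.02-fold lower and Lpin1 is given above.

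Fatty acid oxidation and PPAR-alpha target genes lay mostly below 0. Of 36, 5 were at least 2-fold lower and none higher, 31 were below 0 and the median was -0.33, against -0.35 with IgG. Ehhadh, the bifunctional enzyme of peroxisomal oxidation, measured 172 with standard diet, 39.3 with IgG and 34.6 with anti-VLA-4, 4.99-fold lower. Acot1, a cytosolic acyl-CoA thioesterase, measured 109.5 with standard diet, 30.0 with IgG and 23.1 with anti-VLA-4, 4.74-fold lower. The omega-hydroxylase Cyp4a14 measured 745 with standard diet, 292 with IgG and 333 with anti-VLA-4, 2.24-fold lower. The 5 were lower on both high-fat diet arrays, and Acot2 (3.63-fold) and Cyp4a10 (2.25-fold) were the others. Acot1 and Acot2 were lower with anti-VLA-4 than with IgG, and Cyp4a10 and Cyp4a14 were not. The gap of Ehhadh between these arrays (-0.18 on the log2 scale) was within the scanner's error.

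The median of the cholesterol genes took opposite signs on the high-fat diet arrays. With anti-VLA-4, 18 of 25 were above 0 and the median was 0.25, with 1 gene at least 2-fold higher and none lower; with IgG the median was -0.35, with 1 higher and 4 lower. Acat2, the cytosolic thiolase at the start of the pathway, measured 14.2 with standard diet, 46.2 with IgG and 42.8 with anti-VLA-4, 3.02-fold higher. Sqle, the squalene epoxidase, measured 0.958 with standard diet, 0.272 with IgG and 0.859 with anti-VLA-4. It was low with IgG and within 2-fold of standard diet with anti-VLA-4. The median kept its sign in the 11 settings tried here, from 0.17 to 0.29.

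Bile acid genes had 1 of 22 at least 2-fold higher and none lower (median 0.15, and -0.29 with normexp), against 1 and 3 with IgG. The higher gene was Akr1d1, the bile acid steroid reductase, at 0.641 with standard diet, 1.54 with IgG and 1.98 with anti-VLA-4, 3.08-fold. Cyp7a1, the rate-limiting enzyme of bile acid synthesis, measured 3.06 with standard diet, 4.95 with IgG and 2.44 with anti-VLA-4. Slco1a1, a male-biased uptake transporter, measured 4.66 with standard diet, 0.919 with IgG and 2.68 with anti-VLA-4, 1.74-fold lower with anti-VLA-4 and 5.07-fold lower with IgG. Of 20 apolipoprotein and lipoprotein secretion genes, only Apoa4, which rises with fasting and lipid load, passed 2-fold. It measured 62.6 with standard diet, 45.6 with IgG and 29.9 with anti-VLA-4, 2.10-fold lower, though not past 2-fold with cyclic loess (-0.93 on the log2 scale).

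Male-biased genes and growth hormone targets had 8 of 24 at least 2-fold lower and 1 higher, with a median of -0.32; with IgG 11 were lower and 1 higher, with a median of -0.69. Growth hormone pulses in males keep Cyp4a12 and Egfr high through STAT factors, and Bcl6 is a further member of this list. Bcl6 measured 1.85 with standard diet, 8.68 with IgG and 6.86 with anti-VLA-4, 3.70-fold higher. Egfr, the epidermal growth factor receptor, measured 18.1 with standard diet, 4.02 with IgG and 7.70 with anti-VLA-4, 2.35-fold lower. Socs2, a feedback inhibitor of growth hormone signalling, measured 0.461 with standard diet, 0.188 with IgG and 0.128 with anti-VLA-4, 3.59-fold lower. All 3 lay on the same side with IgG. Hsd3b5, a male-specific steroid dehydrogenase, measured 0.853 with standard diet, 0.337 with IgG and 0.937 with anti-VLA-4, so it was low with IgG and near its standard diet level with anti-VLA-4. Cspg5 was 3.73-fold lower, but normexp turned its difference to 0.40.

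Female-biased genes had 4 of 12 at least 2-fold higher and 2 lower. The median was 0.11, turning to -0.08 without the background filter. Cyp2b10, the standard target of the nuclear receptor CAR, measured 5.31 with standard diet, 19.5 with IgG and 32.1 with anti-VLA-4, 6.05-fold higher. Cyp3a16, by contrast, measured 40.8 with standard diet, 7.43 with IgG and 7.62 with anti-VLA-4, 5.36-fold lower. Cyp2b13, a further Cyp2b enzyme, was well above background only on the high-fat diet arrays, at 0.0328 with standard diet, 0.723 with IgG and 0.945 with anti-VLA-4, and was at least 28.8-fold higher with anti-VLA-4. The Cyp2b genes are close copies, so their signals may overlap.

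Among 20 genes of insulin signalling and its targets, 1 passed 2-fold upward and 2 downward (median -0.09, 0.0017 with cyclic loess). Irs2, an insulin receptor substrate that fasting induces, measured 4.55 with standard diet, 0.796 with IgG and 1.37 with anti-VLA-4, 3.31-fold lower. Igfbp1, a binding protein that insulin represses, measured 61.2 with standard diet, 7.30 with IgG and 35.4 with anti-VLA-4. The Igfbp1 level with anti-VLA-4 lay between the others, 1.73-fold below standard diet, while IgG was 8.37-fold below. Igfbp2 was 2.28-fold lower. In gluconeogenesis and glycolysis, 1 of 22 passed 2-fold upward and 1 downward. The lower one was Pfkfb3, an activator of glycolysis, at 1.79 with standard diet, 0.496 with IgG and 0.640 with anti-VLA-4, 2.80-fold.

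Glucocorticoid targets moved both ways, with 4 of 18 at least 2-fold higher and 3 lower. Cdkn1a, the cell cycle inhibitor p21, measured 4.55 with standard diet, 1.90 with IgG and 0.956 with anti-VLA-4, 4.76-fold lower. Fkbp5, a cochaperone of the receptor, measured 6.70 with standard diet, 3.13 with IgG and 2.70 with anti-VLA-4, 2.48-fold lower. Both lay with Zbtb16 in the lower group and were lowest with anti-VLA-4. Dusp1, a phosphatase of MAP kinases, measured 1.46 with standard diet, 4.77 with IgG and 4.59 with anti-VLA-4, 3.15-fold higher. The metallothionein Mt2, which binds zinc, measured 26.5 with standard diet, 25.6 with IgG and 84.0 with anti-VLA-4, 3.17-fold higher, and its neighbour Mt1 was 2.09-fold higher; Lcn2 is the other of the 4. Mt2 with IgG was near its standard diet level.

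All 11 genes of the D-box and E-box arm were above 0, 3 of them at least 2-fold higher, with a median of 0.79 against 0.51 with IgG. Dbp, a D-box factor at the output of the clock, measured 3.69 with standard diet, 16.9 with IgG and 23.8 with anti-VLA-4, 6.46-fold higher. Nr1d1, the Rev-erb repressor of Bmal1, measured 0.397 with standard diet, 0.461 with IgG and 0.686 with anti-VLA-4, 1.73-fold higher. Arntl, which encodes Bmal1, measured 0.997 with standard diet, 0.642 with IgG and 0.485 with anti-VLA-4, 2.06-fold lower, and was the only one of the 6 Bmal1 arm genes past 2-fold, though not with normexp (-0.54 on the log2 scale). That arm had a median of -0.20, no larger than the scanner's error, with 5 of the 6 genes below 0. The E-box letters CACGTG were in 36.4% of the promoters of the D-box and E-box arm (4 of 11) against 6.86% of all, and the D-box letters in 9.09% (1 of 11) against 0.98%. The hour of isolation is not in the labels, so the part of time of day in these values was not tested.

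Drug-metabolising enzymes of the first phase had a median near 0, between -0.49 with normexp and 0.12 with cyclic loess, with 2 of 30 at least 2-fold higher and 2 lower; with IgG 2 were higher and 8 lower, and the median was -0.64. Cyp3a11, the main PXR target, measured 249 with standard diet, 55.03 with IgG and 53.9 with anti-VLA-4, 4.63-fold lower. Cyp2c70, which makes muricholic acids, measured 6.94 with standard diet, 22.6 with IgG and 33.1 with anti-VLA-4, 4.78-fold higher. Cyp2c37 measured 43.4 with standard diet, 19.5 with IgG and 45.8 with anti-VLA-4, so it was low on the IgG array only, and Cyp2c54 followed at 91.2 with standard diet, 46.6 with IgG and 102 with anti-VLA-4. Por, the reductase that feeds all microsomal P450 enzymes, measured 38.4 with standard diet, 15.5 with IgG and 23.9 with anti-VLA-4. Of 28 conjugation enzymes, Gsta1 (2.83-fold) and Sult5a1 (3.16-fold) were higher and Gstp1, a male-biased glutathione transferase, was 2.61-fold lower at 141 with standard diet, 84.0 with IgG and 54.2 with anti-VLA-4.

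Pericentral and periportal genes each held members on both sides. Of 20 pericentral genes, 2 passed 2-fold upward and 4 downward. Oat, ornithine aminotransferase of the cells around the central vein, measured 75.2 with standard diet, 18.7 with IgG and 21.4 with anti-VLA-4, 3.52-fold lower. The Wnt-dependent Tbx3, Rnf43 and Slc1a2 were 3.13-, 2.47- and 2.43-fold lower, whereas Lect2, a Wnt-dependent secreted protein, was 2.68-fold higher at 20.9 with standard diet, 40.9 with IgG and 56.0 with anti-VLA-4. Of 18 periportal genes 3 were higher, among them Upp2 (3.94-fold), and 2 lower, with Asl, the argininosuccinate lyase of the urea cycle, at 82.4 with standard diet, 40.9 with IgG and 34.0 with anti-VLA-4, 2.42-fold. Across 34 genes of the urea cycle and amino acid breakdown, 24 were below 0, 3 were at least 2-fold lower and none higher (median -0.32; IgG -0.18). The third was Got1, the cytosolic aspartate aminotransferase, at 2.18-fold.

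**Figure D3:**
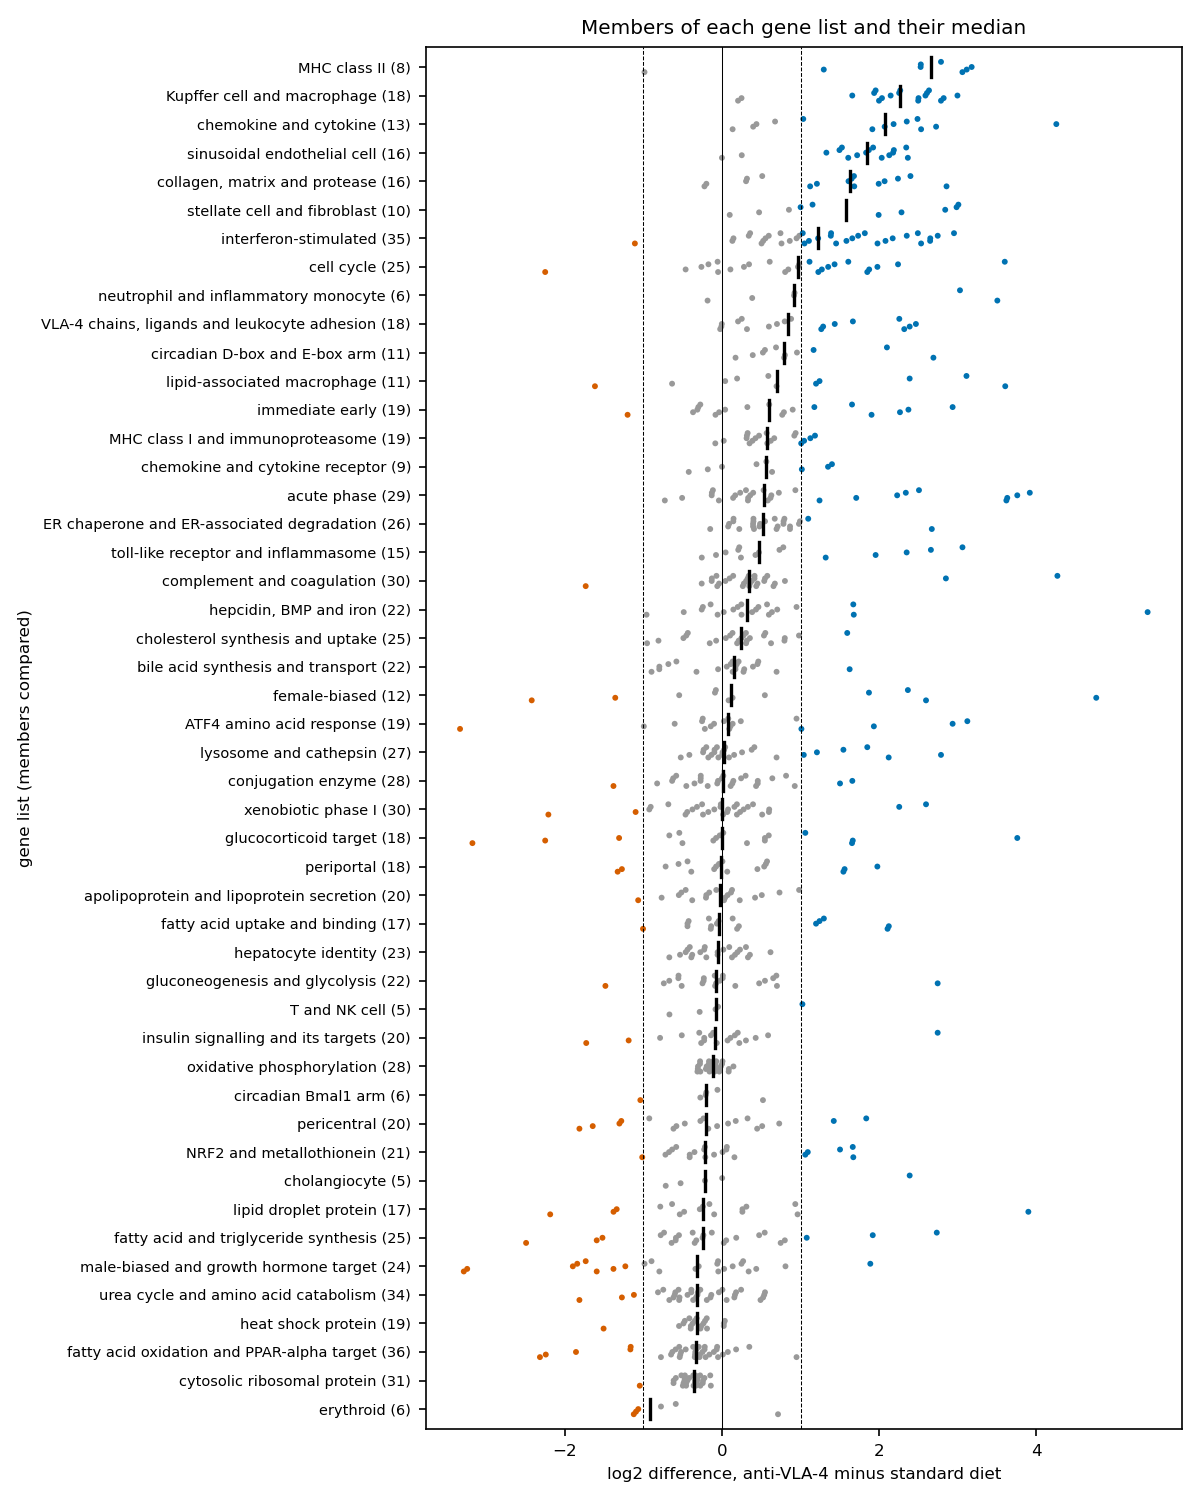
Each point is the log2 difference, anti-VLA-4 minus standard diet, of a list member well above background on both arrays; blue points are at least 2-fold higher, orange at least 2-fold lower, black bars mark list medians and the number compared stands after each list name. MHC class II and Kupffer cell lists lie furthest to the right, with medians of 2.66 and 2.26, and erythroid, cytosolic ribosomal and fatty acid oxidation lists to the left.

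Macrophage, endothelial and stellate cell markers were higher on both high-fat diet arrays, and the hepatocyte markers lay within 2-fold of standard diet with anti-VLA-4. Of 18 Kupffer cell and macrophage markers compared, 16 were at least 2-fold higher and none lower, with a median of 2.26 (IgG 16, median 2.76). Of 16 sinusoidal endothelial markers, 14 were higher and none lower, with a median of 1.85 (IgG 14, median 2.81). Of 10 stellate cell and fibroblast markers, 7 were higher and none lower, with a median of 1.57 (IgG 8, median 2.81). The summed level of the Kupffer list was 23.3 with standard diet, 90.6 with IgG and 71.9 with anti-VLA-4. The endothelial sums were 19.0, 81.5 and 46.2 in the same order, the stellate sums 6.44, 39.0 and 22.1, and the hepatocyte sums 7948, 8089 and 7653. The Kupffer, endothelial and stellate sums were thus higher with anti-VLA-4 than with standard diet and lower than with IgG. Sums of other lists did not follow this order. The lipid-associated macrophage sums were 275, 226 and 244 over 11 genes, and the neutrophil sums 68.0, 72.1 and 62.7 over 6. The T and NK cell sums were 29.0, 14.3 and 19.4 and the cholangiocyte sums 14.1, 8.21 and 12.5, over 5 genes each. Bright members weigh most in such sums, and Slc4a2 alone gave 13.2, 7.18 and 11.4 of the cholangiocyte ones. With standard diet S100a8, S100a9, Camp and Ly6g measured at most 0.310 each, so the neutrophil sums came mostly from other members. Nkg7, Prf1 and Lck measured at most 2.14 each, so the T and NK cell sums did too. These sums thus do not follow the dim markers of their lists. Medians with IgG and anti-VLA-4 were 1.05 and 0.69 for lipid-associated macrophages and 0.48 and 0.92 for neutrophils. For T and NK cells they were -0.35 and -0.08, and for cholangiocytes -0.10 and -0.22. In such bulk RNA, fewer cells of a type and less RNA per cell cannot be told apart.

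Clec4f, a lectin of resident Kupffer cells, measured 1.04 with standard diet, 6.73 with IgG and 5.01 with anti-VLA-4, 4.82-fold higher. Mpeg1, a pore protein of macrophages, measured 0.915 with standard diet, 7.25 with IgG and 7.31 with anti-VLA-4, 7.98-fold higher, the largest difference among the Kupffer list. Stab2, the hyaluronan scavenger receptor of sinusoidal endothelium, measured 1.21 with standard diet, 8.16 with IgG and 4.95 with anti-VLA-4, 4.09-fold higher. Mpeg1 was level between the high-fat diet arrays, and Clec4f and Stab2 were lower with anti-VLA-4. The Clec4f probe holds 66.7% purines and the Mpeg1 probe 45%, and the part of purine content in the Clec4f gap was not tested. Colec11, a collectin of stellate cells, measured 0.255 with standard diet, 3.85 with IgG and 2.02 with anti-VLA-4, 7.92-fold higher. Dcn, the matrix proteoglycan decorin, measured 1.39 with standard diet, 13.1 with IgG and 6.76 with anti-VLA-4, 4.87-fold higher. Defining markers not well above background on either array of the pair were Cd163 for macrophages and Des, Reln and Bmp5 for stellate cells. Of the lipid-associated macrophage list, 5 of 11 passed 2-fold upward and 1 downward; Lgals3 was 8.65-fold higher and Cd9 3.07-fold lower, and Trem2, the receptor that defines those cells, measured 0.00925 with standard diet, 0.580 with IgG and 0.178 with anti-VLA-4, at least 6.93-fold above standard diet, where it was not well above background.

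Neutrophil and lymphocyte markers were thinly measured. Of 15 neutrophil and inflammatory monocyte genes on the array, 6 could be compared and 2 were at least 2-fold higher. S100a9, partner of S100a8, measured 0.217 with standard diet, 0.383 with IgG and 1.77 with anti-VLA-4, 8.16-fold higher, and S100a8 measured 0.0369 with standard diet, 0.102 with IgG and 0.419 with anti-VLA-4. Both were highest with anti-VLA-4. Mmp8, Mmp9, Cxcr2, Ngp and Il1r2, which define neutrophils, were not well above background on either array of the pair. Chil3 (at least 7.41-fold), Retnlg (2.08) and Mpo (1.44) were well above it with anti-VLA-4 only, and Ltf with standard diet only (at least 1.94-fold lower with anti-VLA-4). Among T and NK markers Lck passed 2-fold at 2.03-fold, and Cd8a, Gzmb, Klrb1c, Ncr1 and Il2rb were not well above background on either array. Gzma (at least 2.63-fold), Cd5 (1.96), Cd2 (1.41), Cd3g (1.30) and Cd3d (1.25) were well above it with anti-VLA-4 only in the pair. Of the 15 markers, 5 were well above background with standard diet, 11 with IgG and 10 with anti-VLA-4. Over all spots the shares were 57.3%, 66.5% and 62.4% in the same order. The globin genes Hba-a2 (2.18-fold), Hbb-bt (2.14-fold) and Hba-a1 (2.09-fold) were lower, and their probes may read near-identical copies. Normexp moved the erythroid median from -0.92 to 0.11. Of 5 cholangiocyte genes compared, Spp1 alone passed 2-fold, and Krt7, Epcam and Muc1 were not well above background.

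Of the VLA-4 chains, Itga4 measured 0.0209 with standard diet, 0.110 with IgG and 0.0745 with anti-VLA-4 on the brighter of its probes. It was not well above background with standard diet, so only a bound could be set, at least 2.90-fold higher with anti-VLA-4. Itgb1, the shared beta chain, measured 2.66 with standard diet, 2.32 with IgG and 2.64 with anti-VLA-4 and did not differ beyond the scanner's error. Itgb7, the other partner of Itga4, measured 0.0293 with standard diet, 0.122 with IgG and 0.162 with anti-VLA-4, 5.53-fold higher. Vcam1, the endothelial ligand, measured 0.163 with standard diet, 1.42 with IgG and 0.777 with anti-VLA-4, 4.78-fold higher, and a further Vcam1 probe was dim on both arrays of the pair. Fn1, the fibronectin ligand, measured 137 with standard diet, 105 with IgG and 170.4 with anti-VLA-4. Of the 18 adhesion genes compared, 8 were at least 2-fold higher and none lower (median 0.84; IgG 9 and 0.87), among them Spp1 (5.24-fold) and Icam2 (4.99-fold). The Kupffer and endothelial marker sums given above were also higher on both high-fat diet arrays, and their part in the result was not tested.

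The acute phase list had 9 of 29 genes at least 2-fold higher and none lower, with a median of 0.53 against 0.25 with IgG, and 0.0023 with normexp. Saa4 measured 9.13 with standard diet, 24.2 with IgG and 42.8 with anti-VLA-4, 4.69-fold higher. Steap4, a metalloreductase induced by interleukins, measured 0.485 with standard diet, 0.935 with IgG and 2.76 with anti-VLA-4, 5.69-fold higher. Socs3, the feedback inhibitor of STAT3 signalling, measured 1.24 with standard diet, 0.744 with IgG and 2.93 with anti-VLA-4, 2.36-fold higher. Steap4, Saa4 and Socs3 were all highest with anti-VLA-4, unlike Saa1 and Saa2. Orm3 was 5.06-fold and Saa3 3.27-fold higher, whereas the haptoglobin gene Hp measured 611 with standard diet, 727 with IgG and 594 with anti-VLA-4 and was within 2-fold. Of 22 hepcidin, BMP and iron genes, 3 were at least 2-fold higher and none lower. Bmp2, an endothelial signal that raises hepcidin, measured 0.365 with standard diet, 2.61 with IgG and 1.17 with anti-VLA-4, 3.20-fold higher. Hmox1, the haem oxygenase, measured 1.01 with standard diet, 2.42 with IgG and 3.22 with anti-VLA-4, 3.18-fold higher. Id1, a direct BMP target, measured 0.802 with standard diet, 1.83 with IgG and 1.08 with anti-VLA-4 and stayed within 2-fold with anti-VLA-4. The ferritin light chain gene Ftl1 measured 417 with standard diet, 479 with IgG and 214 with anti-VLA-4, so it was 1.95-fold lower with anti-VLA-4 and not with IgG.

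Interferon-stimulated genes were higher in most cases. Of 35 compared, 21 were at least 2-fold higher, 34 were above 0 and only Tgtp1 was lower (2.16-fold); the median was 1.22 (IgG 18, median 1.09). Oas1a, an oligoadenylate synthetase that senses viral RNA, measured 0.242 with standard diet, 2.79 with IgG and 1.52 with anti-VLA-4, 6.27-fold higher. Oasl2 measured 0.0371 with standard diet, 0.484 with IgG and 0.288 with anti-VLA-4, 7.74-fold higher. Ifit1, an inhibitor of viral translation, measured 0.196 with standard diet, 0.550 with IgG and 0.588 with anti-VLA-4, 2.997-fold higher. Irf1, an interferon-gamma-induced factor, measured 3.30 with standard diet, 3.92 with IgG and 7.11 with anti-VLA-4, 2.15-fold higher. Irf1 alone of these 4 was near its standard diet level with IgG. In the 250 bases before the start, 53.6% of the list's promoters (15 of 28 in the RefSeq table) held the interferon response element letters GAAA, any 2 bases and GAAA on either strand, against 3.46% of 27025 genes. Members with the match had a median of 1.42 and those without 0.98, so both sets were higher. Windows of Ifit1 (GRCm38.p6, chr19:34640770-34640828, plus strand) and Oas1a (chr5:120907526-120907560, minus strand) show the matches in capitals, 2 in each and overlapping in Oas1a.
Ifit1: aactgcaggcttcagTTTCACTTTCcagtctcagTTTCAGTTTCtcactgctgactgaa
Oas1a: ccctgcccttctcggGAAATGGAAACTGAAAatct
The motifs were paired with their lists after the shares had been seen, 7 motifs were searched, and a match is a description of the letters, not a site. The STAT letters TTC, any 3 bases and GAA were in 7 of 23 acute phase promoters (30.4%) and in 8.13% of all.

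Antigen presentation genes lay above 0 in most cases. Of 8 class II genes, 7 were at least 2-fold higher and none lower, with a median of 2.66. H2-Ab1, a class II beta chain, measured 0.676 with standard diet, 5.40 with IgG and 6.12 with anti-VLA-4, 9.05-fold higher. H2-Eb1 measured 0.645 with standard diet, 5.46 with IgG and 5.38 with anti-VLA-4, 8.34-fold higher. Ciita, the factor that switches class II genes on, measured 0.0762 with standard diet, 0.126 with IgG and 0.0385 with anti-VLA-4. That is 1.98-fold lower with anti-VLA-4, against the direction of the chains but within 2-fold. Its signal was dim, and the lowest level called above background on the anti-VLA-4 array was 0.0224. Of 19 class I and immunoproteasome genes 4 were at least 2-fold higher and 18 above 0, with a median of 0.57. Each of the 4 was under 2-fold in at least 1 setting. On the log2 scale Psmb8, Psmb10 and Psmb9 were at 0.65, 0.60 and 0.54 with normexp, and H2-M3 at 0.98 with quantile scaling. Psmb8, an immunoproteasome subunit, measured 2.21 with standard diet, 5.32 with IgG and 4.83 with anti-VLA-4, 2.18-fold higher, and B2m, the class I light chain, measured 147 with standard diet, 183 with IgG and 184 with anti-VLA-4. H2 genes are a family of close copies, and signal may be shared between them. Class II chains are carried by macrophages and B cells. Of the B and plasma cell list, Cd79a, Ms4a1, Pax5 and Blk were not well above background on either array of the pair. Jchain (at least 3.53-fold), Cd79b (2.40) and Mzb1 (1.25) were among those well above it with anti-VLA-4 only. The part of these cells and of the Kupffer sum in these values was not tested.

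Chemokines and cytokines were higher for 9 of 13 compared genes and lower for none, with a median of 2.07. Ccl6 measured 0.249 with standard diet, 1.98 with IgG and 1.64 with anti-VLA-4, 6.61-fold higher. Cxcl9, a chemokine for T cells, measured 0.273 with standard diet, 1.77 with IgG and 1.58 with anti-VLA-4, 5.79-fold higher, and its interferon-induced relative Cxcl10 measured 0.481 with standard diet, 1.69 with IgG and 2.46 with anti-VLA-4, 5.10-fold higher. Ccl2, the chief attractant of monocytes, was well above background only with high-fat diet, at 0.0214 with standard diet, 0.296 with IgG and 0.493 with anti-VLA-4, and was at least 19.2-fold higher with anti-VLA-4. Ccl4 followed at 0.00602 with standard diet, 0.0725 with IgG and 0.298 with anti-VLA-4, at least 11.6-fold higher. Of these, Cxcl1 and Ccl4 had the widest gap between the high-fat diet arrays. The Cxcl1 promoter (GRCm38.p6, chr5:90891141-90891198, plus strand) is shown for 2 matches to the NF-kB letters GGG, any 2 bases and TTTCC, in capitals, which 28.6% of the list's promoters held (6 of 21) and 1.65% of all.
Cxcl1: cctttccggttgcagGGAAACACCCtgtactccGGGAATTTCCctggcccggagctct
The 4 compared genes with these letters had a median of 1.31 and the 6 without them 1.69, all 10 above 0. The summed Kupffer level was 23.3 with standard diet, 90.6 with IgG and 71.9 with anti-VLA-4. Like that sum, Ccl6 and Cxcl9 were highest with IgG, whereas Cxcl1, Cxcl10, Ccl2 and Ccl4 were highest with anti-VLA-4. The part of macrophages in these genes and in the receptors that follow was not tested. Receptors of chemokines and cytokines had 3 of 9 higher and none lower. Among 15 toll-like receptor and inflammasome genes 5 were higher and none lower, with Tlr2, a receptor for bacterial lipopeptides, at 0.0352 with standard diet, 0.244 with IgG and 0.294 with anti-VLA-4, 8.35-fold, and Cd14, the coreceptor for endotoxin, at 0.111 with standard diet, 0.261 with IgG and 0.432 with anti-VLA-4, 3.88-fold. Casp4 (6.32-fold) and Casp1 (5.10-fold) were the inflammatory caspases in this group. Complement and coagulation genes, mostly made by hepatocytes, had 2 of 30 higher and 1 lower; 23 were above 0 and the median was 0.34, but -0.22 with normexp. Cfd was among the higher, and the lower one was C6, a male-biased component of the attack complex, at 8.56 with standard diet, 2.87 with IgG and 2.57 with anti-VLA-4, 3.33-fold.

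**Figure D4:**
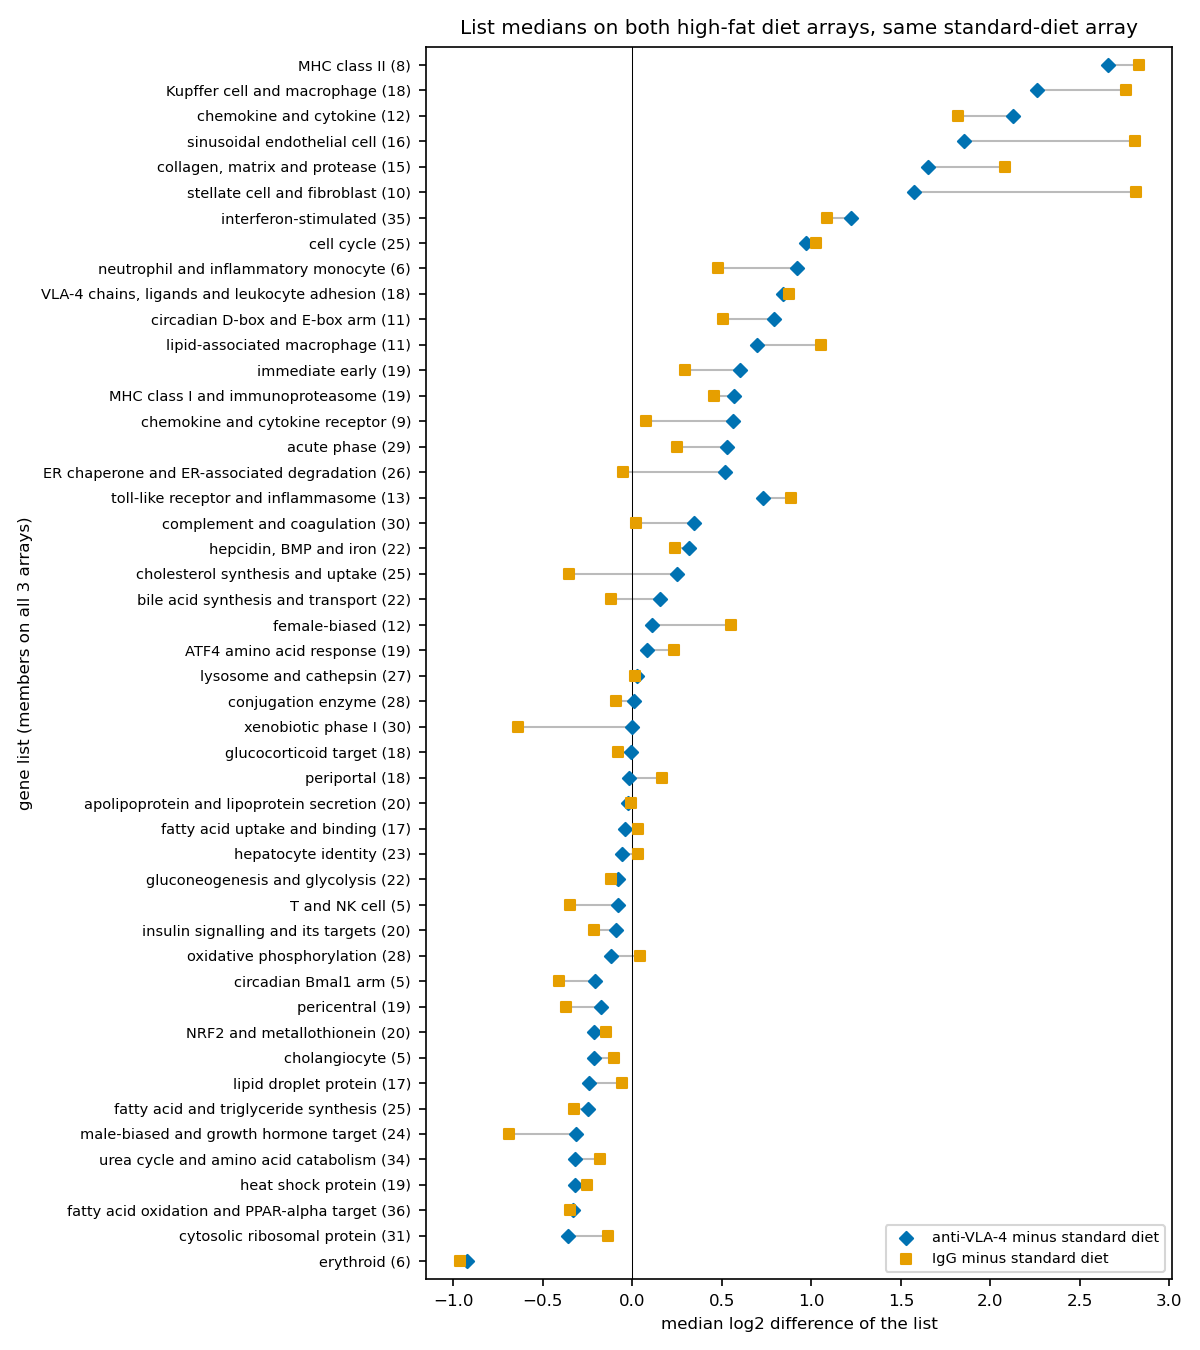
For each list the diamond is the median log2 difference of anti-VLA-4 and the square that of IgG, both minus the same standard diet array, over the members well above background on all 3 arrays (number in brackets). Endothelial and stellate medians are lower with anti-VLA-4 (1.85 and 1.57) than with IgG (2.81 and 2.81). The cholesterol median lies above 0 with anti-VLA-4 (0.25) and below 0 with IgG (-0.35). The ER chaperone median is 0.52 with anti-VLA-4 and -0.05 with IgG, where the median of all genes is also -0.05.

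Endoplasmic reticulum chaperones and degradation genes formed a list of small differences in 1 direction. Of 26, 25 were above 0 with anti-VLA-4, 2 of them at least 2-fold higher, and the median was 0.52; with IgG the median was -0.05 and no gene passed 2-fold. The median stayed above 0 in every setting tried, from 0.18 with normexp, no larger than the scanner's error, to 0.65 with cyclic loess. Hspa5, the BiP chaperone, measured 145 with standard diet, 139 with IgG and 211 with anti-VLA-4, 1.46-fold higher. With normexp the Hspa5 difference was -0.04 on the log2 scale. Derl3, a channel component of protein export for degradation, measured 0.956 with standard diet, 1.31 with IgG and 6.09 with anti-VLA-4, 6.37-fold higher. Syvn1, the ubiquitin ligase of that route, measured 34.5 with standard diet, 31.7 with IgG and 68.0 with anti-VLA-4, 1.97-fold higher. Each was within 1.5-fold between standard diet and IgG. Creld2 measured 36.6 with standard diet, 35.7 with IgG and 59.2 with anti-VLA-4, 1.62-fold higher, and Sdf2l1, a BiP cofactor, was 2.14-fold higher, while Xbp1, a factor of the unfolded protein response, measured 52.1 with standard diet, 41.5 with IgG and 55.4 with anti-VLA-4 and stayed within the scanner's error of standard diet. The letters of the ER stress response element, CCAAT, any 9 bases and CCACG on either strand, were held by 9 of 22 promoters of the list (40.9%) and by 0.13% of 27025 genes. The 9 genes with it had a median of 0.55 and the 13 without it 0.48, all above 0. Windows of Hspa5 (GRCm38.p6, chr2:34772010-34772058), Derl3 (chr10:75893227-75893275) and Creld2 (chr15:88819505-88819553), all on the plus strand, show it in capitals, on the opposite strand in Derl3 and Creld2.
Hspa5: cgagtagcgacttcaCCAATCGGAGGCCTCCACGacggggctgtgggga
Derl3: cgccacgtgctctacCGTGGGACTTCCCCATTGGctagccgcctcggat
Creld2: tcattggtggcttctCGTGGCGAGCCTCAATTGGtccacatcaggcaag

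The ATF4 amino acid response split instead. Among its 19 genes, 4 passed 2-fold upward and 1 downward, with a median of 0.08 (-0.09 with normexp). Asns, which makes asparagine, measured 0.775 with standard diet, 0.108 with IgG and 0.0768 with anti-VLA-4, 10.1-fold lower. Chac1, which breaks down glutathione, measured 0.187 with standard diet, 0.290 with IgG and 1.63 with anti-VLA-4, 8.71-fold higher. The Asns level was low on both high-fat diet arrays, and the Chac1 level was high on the anti-VLA-4 array only. Atf3, a stress-induced factor, measured 0.0486 with standard diet, 0.237 with IgG and 0.372 with anti-VLA-4, 7.65-fold higher. Gdf15, a stress hormone, measured 4.42 with standard diet, 10.8 with IgG and 16.9 with anti-VLA-4, 3.82-fold higher, and Fgf21, a fasting hormone of the liver, measured 1.57 with standard diet, 2.04 with IgG and 3.02 with anti-VLA-4, 1.93-fold higher. Ddit3, the CHOP factor, measured 1.16 with standard diet, 1.39 with IgG and 0.995 with anti-VLA-4 and did not pass 2-fold. Atf5 measured 214 with standard diet, 144 with IgG and 107 with anti-VLA-4, 1.99-fold lower. Promoters of Asns (GRCm38.p6, chr6:7693210-7693247, minus strand) and Chac1 (chr2:119351034-119351071, plus strand) both hold the letters TGATGNAA, in capitals and on the opposite strand in Chac1, although these genes lay at opposite ends of the list; 7 of 20 promoters of the list held them (35%) and 3.91% of all.
Asns: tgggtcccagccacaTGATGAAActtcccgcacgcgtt
Chac1: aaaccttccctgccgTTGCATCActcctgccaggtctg

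**Figure D5:**
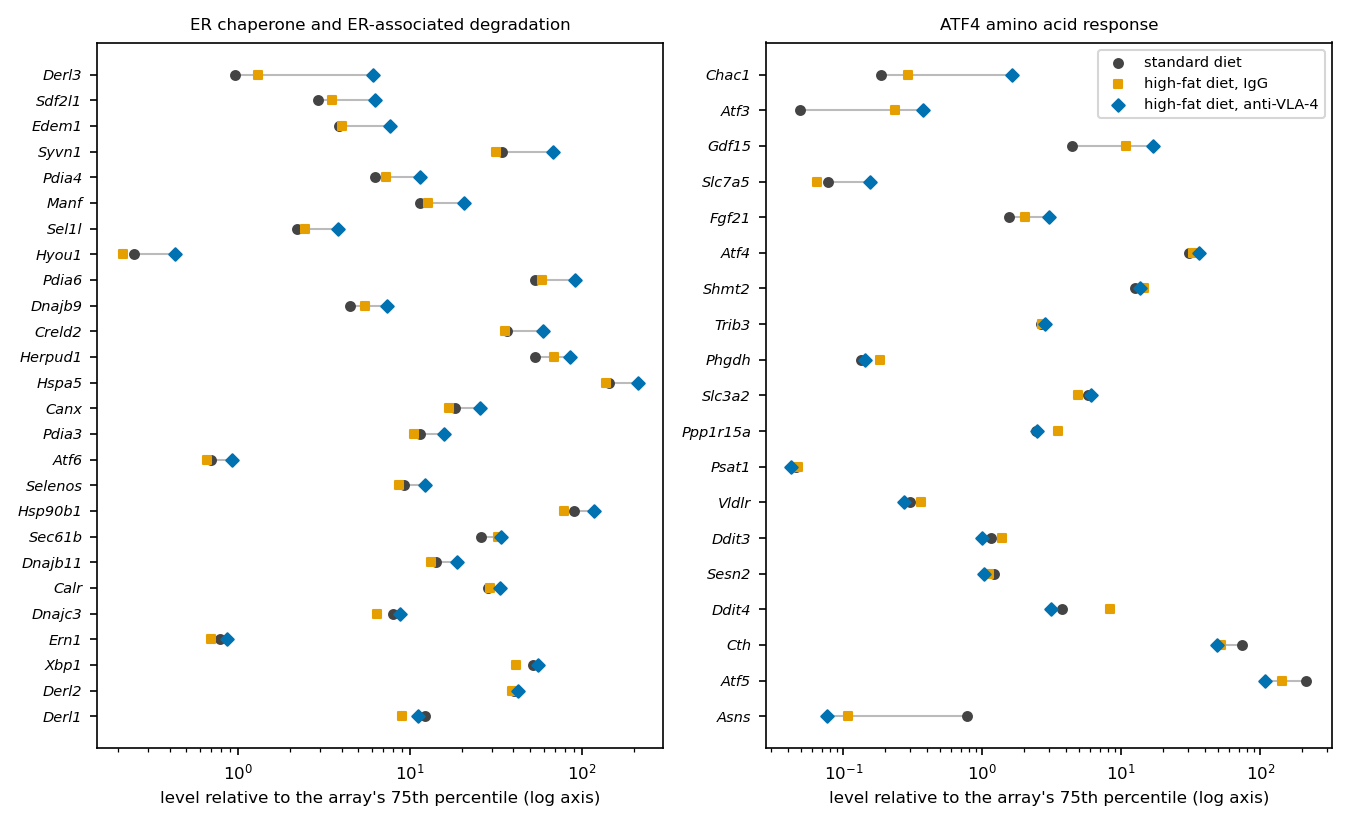
Levels on a log axis, in multiples of the array's 75th percentile, of the ER chaperone list (left) and the ATF4 list (right), with circles for standard diet, squares for IgG and diamonds for anti-VLA-4, 1 array each. On the left 25 of 26 diamonds lie to the right of their circles, with Derl3 furthest; on the right Chac1 lies furthest right of its circle and Asns furthest left.

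Cytosolic and mitochondrial heat shock proteins lay mostly below 0. Of 19, 16 were below 0, 1 was at least 2-fold lower and none higher, with a median of -0.32 (IgG -0.25). Hspb1, a small heat shock protein, measured 49.9 with standard diet, 20.9 with IgG and 17.5 with anti-VLA-4, 2.84-fold lower. Hspa8, the constitutive cytosolic chaperone, measured 212 with standard diet, 222 with IgG and 185 with anti-VLA-4. Of 21 NRF2 and metallothionein genes, 5 passed 2-fold upward and 1 downward, with the median at -0.21; the higher ones were Mt1, Mt2, Hmox1, Gsta1 and G6pdx (2.13-fold), and the lower one was Srxn1, which repairs peroxiredoxins, at 17.7 with standard diet, 10.5 with IgG and 8.73 with anti-VLA-4, 2.02-fold. Nqo1, a standard NRF2 target, measured 0.504 with standard diet, 0.452 with IgG and 0.470 with anti-VLA-4. Immediate early genes had 6 of 19 higher and 1 lower (median 0.60). Klf2, a flow-induced factor of endothelium, measured 0.244 with standard diet, 2.63 with IgG and 1.26 with anti-VLA-4, 5.18-fold higher, and Nr4a1 was 4.81-fold and Klf6 3.74-fold higher. Jun measured 11.98 with standard diet, 12.1 with IgG and 12.3 with anti-VLA-4 and Fos 0.149 with standard diet, 0.134 with IgG and 0.226 with anti-VLA-4, both within 2-fold, and Myc was 2.30-fold lower at 0.234 with standard diet, 0.0851 with IgG and 0.102 with anti-VLA-4.

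Matrix genes were higher with anti-VLA-4 than with standard diet. Of 16 compared, 11 were at least 2-fold higher and none lower, with a median of 1.63 (IgG 10 of 15, median 2.08). Sparc, a collagen-binding protein, measured 1.55 with standard diet, 19.0 with IgG and 8.20 with anti-VLA-4, 5.27-fold higher. Col14a1 measured 0.0750 with standard diet, 1.19 with IgG and 0.544 with anti-VLA-4, 7.25-fold higher. Col3a1, a fibrillar collagen, was well above background only with anti-VLA-4 in the pair, at least 9.80-fold higher, and Col1a1 likewise, at least 2.51-fold. The summed stellate markers were 6.44 with standard diet, 39.0 with IgG and 22.1 with anti-VLA-4, and their part in the result was not tested. Sparc and Col14a1 were lower with anti-VLA-4 than with IgG, and Col1a2, a chain of type I collagen, was 3.98-fold above standard diet.

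Cell cycle genes had 11 of 25 at least 2-fold higher and 1 lower, with a median of 0.97 against 1.03 with IgG. The lower one was the inhibitor Cdkn1a. The proliferation marker Mki67 is given above. Ccnb2, a mitotic cyclin, measured 0.183 with standard diet, 0.606 with IgG and 0.865 with anti-VLA-4, 4.73-fold higher. Ccnd1, the cyclin of G1 entry, measured 1.68 with standard diet, 4.35 with IgG and 4.53 with anti-VLA-4, 2.70-fold higher. Pcna, the replication clamp, measured 3.74 with standard diet, 3.27 with IgG and 3.61 with anti-VLA-4 and was level. Which cells carried these transcripts was not tested.

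Of 31 cytosolic ribosomal protein genes every one was below 0, and 1 was at least 2-fold lower, Rpl4 at 39.2 with standard diet, 33.7 with IgG and 19.0 with anti-VLA-4, 2.07-fold; the median was -0.36, against -0.13 with IgG. The median stayed below 0 in every setting tried, from -0.87 to -0.22. Respiratory chain and ATP synthase genes had none of 28 past 2-fold, and their median was -0.12, 0.04 with cyclic loess. Of 27 lysosomal genes 6 were at least 2-fold higher and none lower, with the median at 0.03. The 6 included Ctss (6.91-fold), a cathepsin of antigen-presenting cells that also stands in the Kupffer list, Laptm5 (4.35-fold) and Ctsc (2.92-fold).

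Genes well above background on only 1 array of the pair have a lower bound in place of a fold, the brighter level against the higher of the dim spot's own level and the lowest level called above background on that array. Of 2202 genes above background with anti-VLA-4 only, 594 had a bound of at least 2-fold; of 642 above it with standard diet only, 315 did. Bcl2a1d, an antiapoptotic gene of leukocytes with close copies, measured 0.0317 with standard diet, 0.592 with IgG and 0.804 with anti-VLA-4, at least 25.3-fold higher with anti-VLA-4. Slc22a27, of the organic anion transporter family, measured 0.00548 with standard diet, 0.257 with IgG and 0.409 with anti-VLA-4, at least 15.9-fold higher. In the other direction Dmbt1, a secreted scavenger receptor protein of epithelia, measured 1.55 with standard diet, 0.00979 with IgG and 0.00619 with anti-VLA-4, at least 69.02-fold higher with standard diet. Spata4 measured 0.315 with standard diet, 0.126 with IgG and 0.00457 with anti-VLA-4, at least 14.05-fold higher with standard diet, and was above background with IgG. Dmbt1 was below background on both high-fat diet arrays. Ppp1r14bl, Meig1 and Ly6f were at least 16.0-, 13.4- and 10.7-fold higher with standard diet. No spot was saturated on any array.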

How the data were processed

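Hepatocyte RNA of 3 groups was hybridised to 1 array each. The submitters' processing notes name Agilent Feature Extraction 11.0.1.1 as the authors' scanner software. The deposited scanner files hold spot intensity after background subtraction, its error, raw mean and local background intensity, and other columns of spot class and flags, per the file headers. The authors' deposited value table holds a linear ratio of the processed signal to the array's 75th percentile, which matched the scanner files to a relative deviation of 2e-08 at most over 23206 rows.

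From the 43020 non-control spots of an array, spots marked non-uniform or as population outliers (117, 158 and 141 on the standard diet, IgG and anti-VLA-4 arrays) were left out, log2 of the processed signal was centred on the array's 75th percentile, and spots of a probe were averaged. A probe passed when at least 0.5 of its spots were well above background on each array of the pair, and a gene took its brightest passing probe. Of 39429 probes, 66.1% were named by accession through a RefSeq table and the rest kept the file's name, giving 31896 symbols. Of 3454 genes with several passing probes, 2 had probes past 2-fold in opposite directions. Probe positions are on mm9, as in the files, and promoters on GRCm38.p6. Probes with at least 5 repeat spots (399) had a median SD of 0.16, 0.16 and 0.13 on the log2 scale, which is technical. With 1 array a group, precision cannot be set from replicates.

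Calls are differences of at least 2-fold, counted and not tested. The text names the 15 highest and 15 lowest genes (clones and predicted loci left out, each passing probe at least 1.5-fold the same way), up to 4 of the most different members of each list with those nearest its median, the 5 highest lower bounds per array, and Itga4, Itgb1 and Vcam1; all other genes were named after their values were seen. The members and gene lists were chosen with earlier results of these data known, and a duplicated gene was removed from the Bmal1 arm after the lists were counted. Settings in the closing section were scaling (quantile, median, cyclic loess), normexp background correction with an offset of 50, filters on dim probes, the probe of a gene, purine content, outlier spots, the value table and the threshold. Normexp and cyclic loess were run with limma 3.58.1 in R 4.3.3, other steps with pandas 2.3.3, numpy 2.4.6 and Python 3.11.15, and plots with matplotlib 3.10.9. The steps were tested on simulated data. A few members of the lists are counted in them but not reported here by name.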

Additional observations from a re-analysis of the deposited data

How the results depend on the processing

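Counts at 2-fold (1023 higher, 379 lower) moved by over 1.5 times with the filter, the threshold and the background correction. They were 2398 and 876 with probes above background on at least 1 array, 3430 and 1855 with no filter, 287 and 134 above the 75th percentile on at least 1 array, 628 and 232 with probes of at most 50% purines, 2222 and 1397 at 1.5-fold and 484 and 108 at 3-fold; fewer or more genes were tested under the filters. Normexp gave 3975 higher and moved the median of all genes by 0.21; the cause was not tested. It turned the 3 list medians beyond their scanner error that changed sign in any setting, cholangiocyte (0.35), erythroid (0.11) and complement and coagulation (-0.22), and smaller medians that included bile acid (-0.29), ATF4 (-0.09), conjugation enzyme (-0.39) and lysosome (-0.29) genes, as well as the differences of Scgb2b2 (0.50) and Cspg5 (0.40). Of 159 named genes past 2-fold, 28 were under it in at least 1 setting. Among them were Apoa4 with cyclic loess (-0.93 on the log2 scale) and, with normexp, Cd36 (0.64), Irf1 (0.57), Psmb8 (0.65) and Lect2 (0.86). Counts moved by less under quantile scaling, median scaling, cyclic loess, the mean over probes, the value table and with outlier spots kept. No replicate could be left out with 1 array a group. No paired analysis was possible because each group has 1 array. Signal near background limits the dimmest genes, for which no more than a bound or a wide difference can be given. S100a8 (0.0369), Tlr2 (0.0352) and Itgb7 (0.0293) were near the lowest level called above background with standard diet, 0.0257. Their differences shrank with normexp to 2.18, 1.91 and 1.72 on the log2 scale and stayed past 2-fold.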

Other observations

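A few bright genes outside the lists and the naming rule, chosen after their values were seen, differed by more than 6-fold in this pair. Car3, a carbonic anhydrase abundant in fat and in male liver, measured 24.9 with standard diet, 200.5 with IgG and 198 with anti-VLA-4, 7.94-fold higher with anti-VLA-4. Serpina6, the corticosteroid-binding globulin of plasma, measured 9.05 with standard diet, 31.9 with IgG and 63.0 with anti-VLA-4, 6.96-fold higher. Cyp21a1, the steroid hydroxylase of the adrenal cortex, measured 0.642 with standard diet, 1.41 with IgG and 4.97 with anti-VLA-4, 7.73-fold higher. Car3 was level between the high-fat diet arrays, while Serpina6 and Cyp21a1 were highest with anti-VLA-4.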
